A study of Mus musculus with 30 samples.

Results

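Gene expression in the small intestine was compared with that in the mean of 12 tissues from outside the gut, namely the bladder, bone, brain cortex, fat, kidney, skin, eyes, muscle, cerebellum, heart, lung and liver. The arrays were grouped by their tissue labels alone: 2 small intestine arrays against 24 non-gut arrays, out of 30 arrays of 15 tissues in the series. The large intestine and stomach, with 2 arrays each, were left out of the comparison and are given beside it as the nearest organs. All tissues came from adult male C57BL/6 mice, 28 weeks old by the labels (the sources used here differ on the age), and the series description states that replicates were taken from different animals except for fat and bone. The pieces of tissue were washed in PBS and frozen, and the labels give neither the stretch of small intestine taken nor any separation of its cell layers.

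Each array carried the tissue RNA in Cy3 and a common reference RNA in Cy5, a pool of 11 mouse cell lines mixed with RNA of embryonic stem (ES) cells. The dyes were never swapped. A level is given as the log2 ratio of Cy3 over Cy5, which is above 0 for a transcript more abundant in the tissue than in the reference, and a difference is the mean log2 ratio of the 2 small intestine arrays minus the mean of the 12 non-gut tissue means. Within the study, these tissue profiles served to ask whether genes that react to induced transcription factors in ES cells are expressed in few or many tissues.

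The small intestine digests food and takes up the products through a single layer of enterocytes, whose apical microvilli form the brush border. Enterocytes are made in the crypts, move up the villi and are shed within days, so that the organ holds dividing, absorbing and dying cells side by side. Goblet, Paneth, tuft and enteroendocrine cells lie among them, and many lymphocytes lie in and under the epithelium. The crypt-villus programme is known to be driven by transcription factors of the CDX, HNF1, HNF4 and GATA families.

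The 2 small intestine arrays correlated with r = 0.97 across probes, and Cy3 stood well above background for 60.9% and 61.2% of their probes, within the range of 53.9% to 76.9% over all arrays. Large intestine replicate 1 was closer to the small intestine arrays (r = 0.884 and 0.895) than to large intestine replicate 2 (r = 0.798). The counts over all probes and the values of some genes are therefore given with and without replicate 1. For the other genes the comparison with the large intestine uses both arrays. Without replicate 1 the large intestine is 1 array, and the tests then assume that it varies like the other tissues. The fat replicates (r = 0.671) and the bone replicates (r = 0.848) were also less alike than those of other tissues. Both small intestine arrays were scanned on the same day as muscle, skin, stomach and 1 array each of fat and large intestine, whereas 9 of the 12 non-gut tissues were scanned wholly on other days, so that scan day and tissue cannot be told apart in the comparison with all 12. Against muscle, skin, fat and bone alone, with scan day as a block, 2558 probes were called higher and 2766 lower.

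The reference signal was not the same on all arrays for probes that were very bright in the small intestine. Lct gave Cy5 mean signals of 25457 and 25747 scanner units on the small intestine arrays, against a median of 140.2 and a highest value of 274.1 on the 24 non-gut arrays, although the reference RNA was the same. Of the 287 probes with a difference of at least 4, 159 (55.4%) had Cy5 signals on both small intestine arrays above those on all non-gut arrays, compared with 6 (0.0373%) of the probes not called. The log2 ratio thus understated the difference of some of these probes, such as Lct (4.44, and 10.43 on Cy3 alone). For others the 2 measures were close, as for AA467197 (6.475 and 6.449) and Bnip5 (6.02 and 5.87). Elsewhere the ratio gave the larger difference, as for Scg2 (4.02, and 2.92 on Cy3 alone) and Cps1 (6.30 and 5.35). The difference of the Cy3 signal alone is given beside the ratio for some genes where the 2 measures differ. The cause of the raised Cy5 signal was not tested.

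Of 21,026 probes tested, 2555 (12.2%) were called higher and 2367 (11.3%) lower in the small intestine than in the non-gut mean, at a limma adjusted p under 0.05 and a difference of at least 1 on the log2 scale. With the log ratios of each array centred on their median, 1874 probes were called higher and 2874 lower, so that the share of calls that were higher went from 51.9% to 39.5%. Large differences were mostly upward: 1222 of the calls higher and 385 of the calls lower reached 2, and 287 against 5 reached 4. The median difference over all probes was -0.11 with a median SE of 0.19. Both small intestine arrays lay above all 24 non-gut arrays for 1039 of the probes called higher (4.94% of the probes tested), and below all of them for 497 of those called lower (2.36%). A symbol was known for 459 of the higher and 432 of the lower probes. Since these are whole tissues, more cells of a type and more RNA per cell cannot be told apart.

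The small intestine was not the peak of most probes called higher. Among the 15 tissues it had the highest mean for 971 of them (38.3% of those with a value in every tissue), followed by the large intestine with 393, the liver with 317, the stomach with 169, the lung with 128, bone with 121 and the kidney with 111. Where the small intestine was highest, the next tissue was the large intestine for 398 probes, the stomach for 109, the liver for 100 and the kidney for 83. Among the non-gut tissues, the liver was highest for 557 of the probes called higher (22.0%), the lung for 361 and the kidney for 342. Of the probes called lower, the small intestine was the lowest of the 15 tissues for 559 (23.7%) and the liver for 525, while the non-gut tissue with the highest mean was brain cortex for 431, muscle for 323, cerebellum for 289 and heart for 240.

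**Figure D1:**
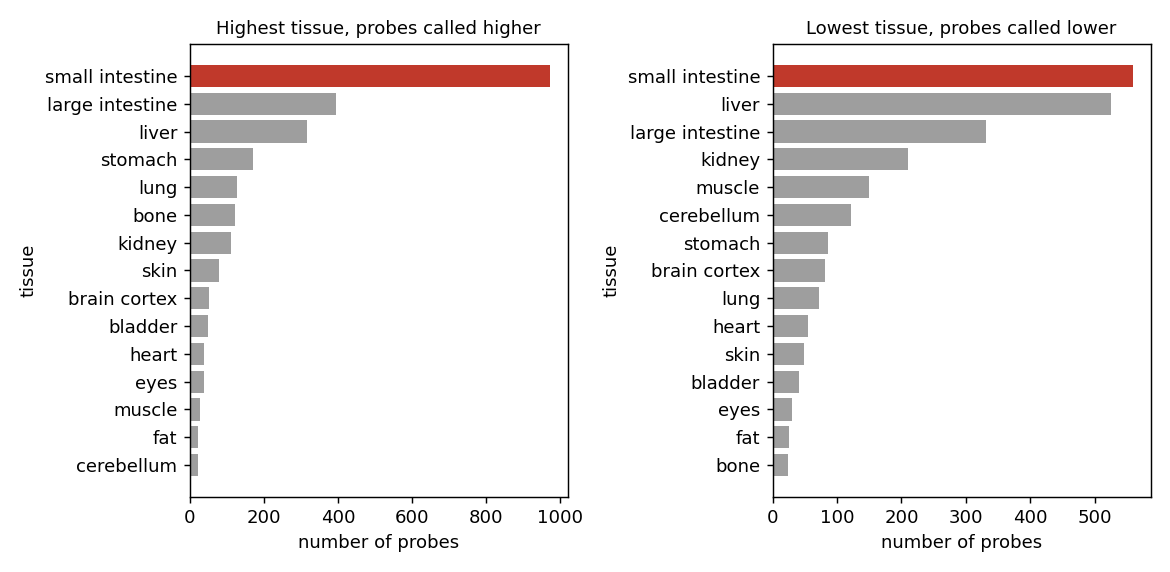
Number of probes (x axis) by tissue (y axis). Left, the tissue with the highest mean log2 ratio for the probes called higher in the small intestine, and right, the tissue with the lowest mean for the probes called lower; the small intestine is in red. The small intestine leads both panels, with 971 and 559 probes, followed by the large intestine on the left and the liver on the right.

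The tissue was checked first against enterocyte markers, a list that, like those below, was chosen with earlier results of these data known. Of the 18 markers, 7 had a named probe and 6 were tested; all 6 were called higher (100%, median difference 4.81), where 12.2% of all probes were, and for all 6 both small intestine arrays lay above the 24 non-gut arrays. Their summed level, on a log2 scale, was 9.31 and 9.82 on the small intestine arrays, most of it from Sis, and between 1.96 and 5.22 on the non-gut arrays. The brush border enzyme list, which shares 3 genes with the markers, had 5 of 8 probes called higher and 0 lower, with a median of 2.22.

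Sis encodes sucrase-isomaltase, the brush border enzyme that splits sucrose and the branch points of starch, and it had the largest difference in log2 ratio of all probes tested. Its log2 ratio was 9.02 and 9.51 on the small intestine arrays, against a lowest of -1.25, a median of -0.86 and a highest of -0.15 on the non-gut arrays. The groups were far apart, with no non-gut tissue above the reference. The difference was 10.11 ± 1.04 (SE, limma adjusted p = 2.36e-07), and 10.92 on Cy3 alone. In the large intestine the log2 ratio of Sis was 7.91 in replicate 1 and -0.46 in replicate 2, and in the stomach it was -0.84 and -0.95. Small intestine exceeded large intestine by 5.54 (adjusted p = 0.011) with both large intestine arrays and by 9.73 (adjusted p = 1.9e-13) without replicate 1.

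Lct, lactase, gave log2 ratios of 4.61 and 5.47 in the small intestine and between -0.52 and 3.82 (median 0.03) in the non-gut arrays, where the highest values were those of brain cortex. The arrays did not overlap, and the difference was 4.44 ± 0.36 (adjusted p = 8.23e-09). On Cy3 alone the difference was 10.43, with mean signals of 186079 and 146327 scanner units in the small intestine and a non-gut median of 107.6. Lct also differed from both gut neighbours, by 4.30 from the large intestine (adjusted p = 5.4e-06; 4.21 without replicate 1) and by 4.07 from the stomach (adjusted p = 2.8e-06).

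Alpi, the intestinal alkaline phosphatase, was well above background in both small intestine arrays and in none of the 24 non-gut arrays. Its log2 ratio was 3.69 and 4.39 against a non-gut range of -0.22 to 0.18, and on Cy3 it was at least 129-fold higher. Such bounds set the small intestine level against the lowest signal that passed as above background on each array. Each is the lower of 2 values, one from the Cy3 channel after loess and quantile normalization of the mean brightness and one from Cy3 quantile normalized alone, and remains exposed to dye bias because the dyes were not swapped. The difference of Alpi was 4.01 ± 0.22 (adjusted p = 4.57e-11), and 7.08 on Cy3 alone. Against the large intestine, at 3.47 and 3.03, its difference of 0.79 did not pass (adjusted p = 0.078), and without large intestine replicate 1 it was 1.01 (adjusted p = 0.033).

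The region before the start of a gene is shown for 4 genes, Sis, Lct, Alpi and the unnamed transcript 2010106E10Rik. Each is given as 250 bases from the RefSeq promoter table (GRCm38.p6), 5′ to 3′ on the gene's strand. All 4 held matches to the letters below, as did Exoc3l4, whereas the other promoters looked up held none. The 4 thus do not stand for the genes looked up. Capitals mark exact matches on either strand. The letters searched were TTTATNG for the CDX factors. For HNF1 they were GTTAAT, which covers a part of its full site. For HNF4 they were AAAGTCC. For the GATA factors they were AGATAA, and for the TATA box TATAAA.
Sis, chr3:72967864-72968113, minus strand: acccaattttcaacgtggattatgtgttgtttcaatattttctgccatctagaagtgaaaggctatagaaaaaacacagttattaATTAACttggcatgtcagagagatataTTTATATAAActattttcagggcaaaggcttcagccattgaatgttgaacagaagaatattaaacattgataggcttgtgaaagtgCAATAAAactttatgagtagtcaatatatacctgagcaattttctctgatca
Lct, chr1:128328319-128328568, minus strand: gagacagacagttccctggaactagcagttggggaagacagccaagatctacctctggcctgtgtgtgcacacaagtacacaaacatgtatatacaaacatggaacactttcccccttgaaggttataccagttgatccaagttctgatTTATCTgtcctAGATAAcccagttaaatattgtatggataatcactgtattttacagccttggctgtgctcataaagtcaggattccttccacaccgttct
Alpi, chr1:87101607-87101856, minus strand: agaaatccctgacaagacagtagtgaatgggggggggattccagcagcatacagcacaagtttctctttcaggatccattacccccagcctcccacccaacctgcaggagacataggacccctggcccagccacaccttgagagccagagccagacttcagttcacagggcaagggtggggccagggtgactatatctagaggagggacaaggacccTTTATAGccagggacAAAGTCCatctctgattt
2010106E10Rik, chrX:112495024-112495273, plus strand: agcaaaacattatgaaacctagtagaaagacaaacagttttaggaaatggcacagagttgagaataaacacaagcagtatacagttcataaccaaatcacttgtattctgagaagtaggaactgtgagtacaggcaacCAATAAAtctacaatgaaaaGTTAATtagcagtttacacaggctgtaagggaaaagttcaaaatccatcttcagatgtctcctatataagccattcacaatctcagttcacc

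Sis held a CDX match 52 bases before the start, an HNF1 match at 165 and a pair of overlapping TATA matches at 138 and 134. Lct held GATA matches at 101 and 90. In Alpi a CDX and a TATA match overlapped at 33 and an HNF4 match lay at 18, and 2010106E10Rik held a CDX match at 112 and an HNF1 match at 92. Promoters were listed for 14 of the 17 genes looked up, which were those with the largest differences and the enterocyte markers. Of these 14, the CDX letters were in 3, HNF1 in 2, HNF4 in 1, GATA in 2 and TATA in 2, whereas of all 32,851 promoters 9.81%, 6.43%, 3.58%, 9.99% and 12.4% held them. A match describes the letters in the window and is not a measured binding site.

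Vil1, the actin-bundling villin of the microvillus core, stood at 5.09 and 5.84 in the small intestine, with a non-gut median of -0.15 and a highest value of 5.07 in kidney, an organ that also has a brush border. The lower small intestine array was thus only just above the upper kidney array. The difference was 5.19 ± 0.27 (adjusted p = 2.4e-11), and 9.15 on Cy3 alone. Gpa33, a surface glycoprotein of intestinal epithelium, had log2 ratios of 2.44 and 3.13 and a difference of 3.38 ± 0.22. Neither differed by a call from the large intestine, with differences of 0.10 (adjusted p = 0.93) and -0.26 (adjusted p = 0.66).

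Among the other members of the brush border list, Pm20d1, a secreted enzyme that joins and splits fatty acids and amino acids, was higher by 2.95 ± 0.32 (adjusted p = 4.43e-07), although liver lay above the small intestine. Ace, the angiotensin-converting peptidase, was at 2.74 and 3.71, overlapping the lung, and was higher by 1.48 ± 0.25 (adjusted p = 6.68e-05). Without small intestine replicate 2 the difference of Ace was 0.99 (adjusted p = 0.0173), under the threshold. On Cy3 alone it was 4.42. The remaining 3 members, Alppl2, Neu4 and Cpa6, had differences of 0.59, -0.32 and 0.06 and were not called.

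The 14 named genes with the largest positive differences in log2 ratio among those without overlap included Sis, Ada and Vil1. Phgr1, a small protein rich in proline, histidine and glycine, followed Sis on that scale. On Cy3 alone its difference was 9.04, under those of Lct (10.43) and Zg16 (10.42). Its log2 ratio was 8.10 and 8.75 in the small intestine and between -0.14 and 1.97 in the non-gut arrays, with lung highest, and its difference was 8.18 ± 0.17 (adjusted p = 6.68e-17). Phgr1 was about as high in the large intestine (8.73 and 8.53; difference -0.21, adjusted p = 0.65) and somewhat lower in the stomach (7.86 and 7.34; difference 0.82, adjusted p = 0.015).

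Ada, adenosine deaminase, which converts adenosine to inosine, was instead highest in the small intestine alone. It was at 5.15 and 5.48 there, against -2.98 to -0.24 in the non-gut arrays (median -1.68), 2.08 and 1.36 in the large intestine and 3.16 and 3.65 in the stomach. The stomach arrays came closest to the small intestine. The difference was 7.07 ± 0.16 from the non-gut mean (adjusted p = 1.46e-16), 3.60 from the large intestine (adjusted p = 1.4e-09; 3.95 without replicate 1) and 1.91 from the stomach (adjusted p = 1.7e-06).

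Tm4sf20, a membrane protein with 4 transmembrane spans, was well above background in no non-gut array. Its log2 ratio was 5.39 and 5.95 in the small intestine and at most 0.50 in the others, and on Cy3 it was at least 181-fold higher. It was similar in the large intestine (5.50 and 5.05; difference 0.40, adjusted p = 0.12) and at 0.06 and 0.02 in the stomach, from which it differed by 5.62 (adjusted p = 1.1e-14). Its difference from the non-gut mean was 5.65 on the ratio and 7.53 on Cy3 alone. The transcript 2010106E10Rik had the same kind of pattern, at 5.05 and 5.35, with no non-gut array above background and a bound of 52.9-fold. It was at 3.55 in large intestine replicate 1 and 0.01 in replicate 2, giving a difference of 3.41 (adjusted p = 0.00073), or 5.19 (adjusted p = 1.9e-13) without replicate 1.

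Lypd8, a secreted protein that keeps flagellated bacteria off the gut lining, was at 5.97 and 6.77 in the small intestine. Its non-gut median was 0.07, but 1 of the 2 fat arrays reached 5.82 while the other was at 0.08. On Cy3 the highest non-gut array (60513 scanner units) lay above small intestine replicate 2 (29811) and below replicate 1 (72502). The difference was 5.96 ± 0.72 (adjusted p = 1.79e-06), and 8.925 on Cy3 alone. Lypd8 was at 6.66 and 5.98 in the large intestine and at 6.20 and 6.11 in the stomach, and neither difference passed.

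The other members of this group had differences between 5.29 and 6.47, namely AA467197, Bnip5, 2210009P08Rik, 2200002D01Rik, Exoc3l4, Fam83e and Ly6m. Exoc3l4 alone of these 7 was both highest in the small intestine and called above both other gut tissues, by 3.14 over the large intestine (adjusted p = 0.002; 4.30 without replicate 1) and by 6.24 over the stomach (adjusted p = 3.6e-07). 2210009P08Rik was called above the large intestine (1.18, adjusted p = 0.046; 2.20 without replicate 1) but not the stomach, whose mean was highest. For AA467197, Bnip5, 2200002D01Rik, Fam83e and Ly6m the large intestine had the highest mean of all tissues, and none of them was called against it.

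**Figure D2:**
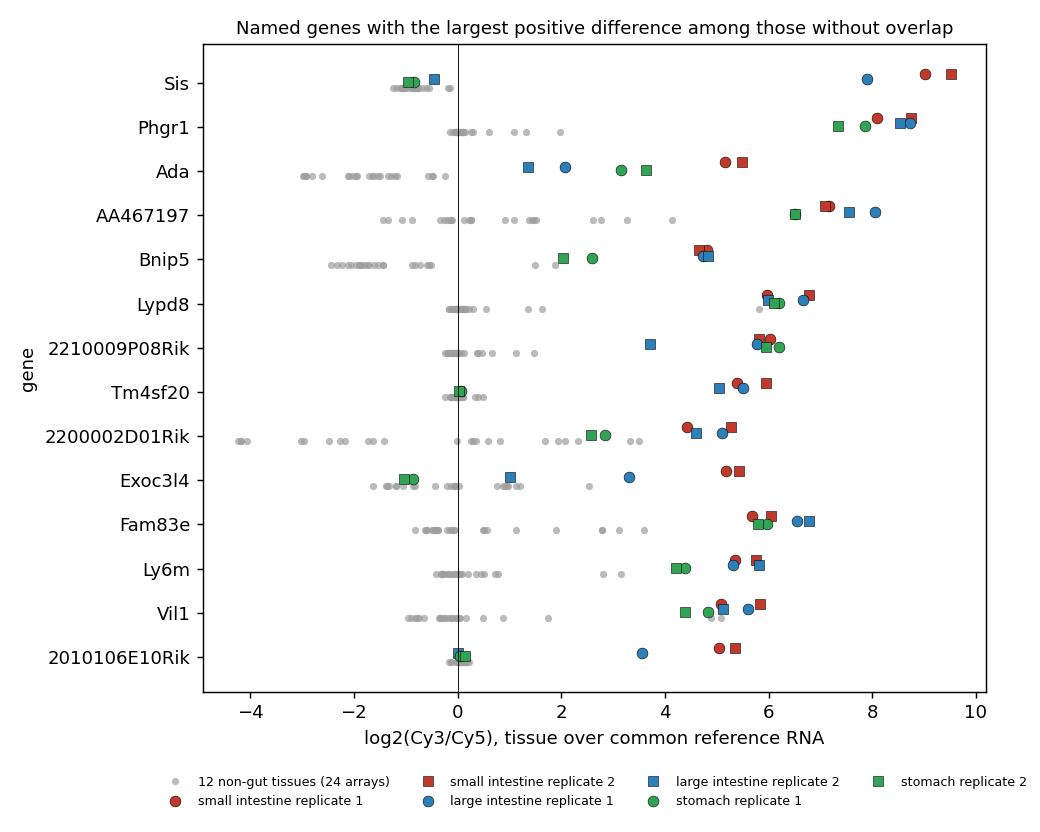
The log2 ratio of tissue over reference RNA (x axis) for the 14 named genes with the largest positive differences among those whose small intestine arrays all lay above the non-gut arrays (y axis). Small intestine arrays are red, large intestine blue and stomach green, with circles for replicate 1 and squares for replicate 2, and the 24 non-gut arrays are grey. Every red point lies right of every grey point in its line, and the large intestine replicates are far apart for Sis (7.91 and -0.46) and 2010106E10Rik (3.55 and 0.01).

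Of 15 probes for genes of epithelial structure, 10 were called higher (66.7%, where 12.2% of all probes were) and 0 lower (11.3% of all probes), with a median of 3.38. Pls1, a fimbrin that bundles the actin of microvilli, was at 4.83 and 5.29 in the small intestine and at most 2.97 in the non-gut arrays, where kidney was highest. The difference was 4.56 ± 0.46 (adjusted p = 1.59e-07), and 6.60 on Cy3 alone. Rab17, a small GTPase of epithelial transport, was at 5.17 and 5.67, just above the highest liver array at 5.17. Tm4sf4, a relative of Tm4sf20, was higher by 4.33 ± 0.38, and by 6.47 on Cy3 alone. Its log2 ratios of 3.51 and 4.12 were below the liver mean of 4.29, but its Cy5 signals of 4362 and 5213 scanner units were above the non-gut highest of 3487. On Cy3, replicate 1 (16983 scanner units) lay above every non-gut array (highest 15952) and replicate 2 (13860) did not. Lad1, an anchoring filament protein, was higher by 3.64 ± 0.52, and the highest non-gut array, at 3.70, lay above the lower small intestine array of 3.56. The 5 probes that were not called (2 for Plekha6, and those for Epn3, Cldn12 and Espnl) had differences between -0.10 and 0.66.

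Mucosal defence genes were called higher for 8 of 9 probes (88.9%, where 12.2% of all probes were) and lower for 0 (11.3% of all probes), with a median of 3.34. Pigr, the receptor that carries immunoglobulin A across the epithelium, was at 4.69 and 4.72 in the small intestine, 3.83 and 5.06 in the large intestine and 0.48 and 0.51 in the stomach. Among the non-gut arrays it was highest in liver, at up to 3.55. The difference was 4.24 ± 0.25 from the non-gut mean (adjusted p = 1.54e-10) and 4.21 from the stomach (adjusted p = 2.1e-08).

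Zg16, a lectin of goblet cell granules that is also made in the pancreas, was at 3.85 and 4.79, against a highest non-gut value of 1.32. Its difference was 4.21 ± 0.24 on the ratio and 10.42 on Cy3 alone, the Cy5 signal being 44003 and 16605 scanner units in the small intestine and 83.08 at the non-gut median. Mptx1, a mucosal pentraxin, was at 5.74 in replicate 1 and 3.36 in replicate 2, the widest spread of this list. In the large intestine it was higher, at 6.68 and 6.72, and the difference of the small from the large intestine was -2.15 (adjusted p = 0.0018). Gal3st2, a sulfotransferase of mucin sugars, was at 3.36 and 3.43, with no non-gut array above background and a bound of 14.7-fold. It was called above the large intestine by 1.38 (adjusted p = 9.1e-05) and the stomach by 3.51 (adjusted p = 1e-10).

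Ccl20, the chemokine that draws lymphocytes to the follicle epithelium, was at 3.76 and 2.13, and the non-gut highest was 1.47 in lung. Cd55, which limits complement on cell surfaces, was higher by 2.55 ± 0.29. B3gnt7, a glycosyltransferase, was higher by 2.10 ± 0.39 than the non-gut mean but lower than the large intestine (difference -2.72, adjusted p = 0.0016; -4.09 without replicate 1). Ccl24, an eosinophil chemokine, had a difference of 0.64 and was not called.

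Of the 48 lipid absorption genes 20 had a named probe, and these did not move as a group. Of 20 probes, 3 were called higher (15%, where 12.2% of all probes were) and 4 lower (20%, where 11.3% were), with a median of -0.35. The 3 that were higher, Dgat1, Gpat3 and Agpat2, act in the building of triglycerides, but their number is near the share of all probes. The related Gpat4, Agpat5 and Agpat3 were not called against the non-gut mean. Against single non-gut tissues these were called lower than 2, 5 and 5 of the 12, and higher than 0, 1 and 0. Dgat1, which makes the final step to triglyceride, was at 4.003 and 4.45, above the highest non-gut array, in fat, at 2.89. Its difference was 4.05 ± 0.21 (adjusted p = 1.44e-11), and it was called above the large intestine by 1.72 (adjusted p = 0.00031) and the stomach by 2.47 (adjusted p = 1.5e-06). Gpat3, which starts glycerolipid synthesis, was at 4.56 and 4.53, also above all fat arrays (highest 3.73), and was higher by 3.75 ± 0.32 (adjusted p = 1.94e-08). Agpat2, of the following step, was higher by 2.41 ± 0.21, with liver, at 2.87, above the small intestine.

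The 4 lower probes were Abcg1, a cholesterol exporter (difference -2.33 ± 0.13), and 3 long-chain acyl-CoA synthetases, Acsl1 (-1.44 ± 0.22), Acsl4 (-1.20 ± 0.18) and Acsl6 (-1.10 ± 0.35). The Acsl6 call was lost with either small intestine array left out (adjusted p = 0.0505 and 0.186). Mogat1, which joins a fatty acid to monoacylglycerol, was at 0.09 and 0.65, against 4.21 and 4.14 in the stomach (difference -3.81, adjusted p = 1.6e-09). Sar1b, the GTPase of chylomicron export from the endoplasmic reticulum, had a difference of 0.70 ± 0.36 (adjusted p = 0.117), with muscle highest.

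Acyl-CoA metabolism had 9 of 33 probes called higher (27.3%, where 12.2% of all probes were) and 4 lower (12.1%, where 11.3% were), with a median of 0.39. When log ratios were centred on the median 5 were higher (15.2%, where 8.91% of all probes were). Acot12, a cytosolic thioesterase that releases acetate from acetyl-CoA, was at 5.17 and 5.87 in the small intestine and near 0 in all other tissues except kidney and liver, whose means were 7.41 and 7.20. The difference was 4.24 ± 0.17 from the non-gut mean (adjusted p = 4.37e-13), 5.49 from the large intestine (adjusted p = 7.4e-12) and 5.45 from the stomach (adjusted p = 1.3e-12). The thiolases Acaa1b and Acaa1a were higher by 2.63 ± 0.35 and 1.75 ± 0.12, and the thioesterases Acot4 and Acot8 by 1.601 ± 0.14 and 1.36 ± 0.19. Acaa1a and Acot8 had both small intestine arrays above every non-gut array, while Acaa1b and Acot4 did not.

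The 4 lower members were Acot1, Acadsb, Acad8 and Acly, with differences of -2.08, -1.86, -1.05 and -1.27, and that of Acad8 was -0.96 without small intestine replicate 2, under the threshold. Acadsb, which oxidizes short branched acyl-CoA, was at -0.31 and 0.01, below all 24 non-gut arrays. The mitochondrial enzymes Acadm (difference -0.23, adjusted p = 0.577) and Hadha (0.59) were not called.

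Cps1, which makes carbamoyl phosphate for citrulline and urea, showed a pattern shared with liver. It was at 6.9998 and 6.66 in the small intestine, at 8.96 in the liver mean and at most 0.15 in the means of the other 11 non-gut tissues. The difference was 6.30 ± 0.56 (adjusted p = 3.63e-08), and 5.35 on Cy3 alone. In the large intestine it was at 4.34 in replicate 1 and -0.14 in replicate 2, and in the stomach at -0.36 and -0.38, so that the small intestine was called above both, by 4.73 (adjusted p = 0.0003; 6.97 without replicate 1) and 7.20 (adjusted p = 6.9e-07). Otc, which makes citrulline from carbamoyl phosphate, was at 1.81 and 1.54 and was higher by 1.08 ± 0.12 (adjusted p = 6.76e-07), again with liver highest at 3.61. Without small intestine replicate 1 the difference of Otc was 0.94, under the threshold.

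Glul, glutamine synthetase, went the other way, and the small intestine was the lowest of all tissues. It was at -1.40 and -1.35, below the non-gut range of -0.03 to 3.10, and the difference was -2.69 ± 0.32 (adjusted p = 1.59e-06). Against the large intestine the difference was -2.70 (adjusted p = 0.00031; -3.92 without replicate 1) and against the stomach -3.55 (adjusted p = 4.7e-06).

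Purine and pyrimidine genes were called higher for 3 of 16 probes and lower for 3 (18.8% each, where 12.2% and 11.3% of all probes were), and the list spanned from -5.28 to 7.07. Besides Ada, Cmpk1, the UMP-CMP kinase, was higher by 1.93 ± 0.28 and Adss, the common adenylosuccinate synthase, by 1.27 ± 0.30. The Adss call was lost without small intestine replicate 1 (difference 1.09, adjusted p = 0.0632). Adssl1, the muscle form of that enzyme, was at -3.52 and -3.46, below all non-gut arrays, whose values ran from -1.53 to 5.53 with muscle highest. Its difference was -5.28 ± 0.16 (adjusted p = 1.52e-14), and it was equally low in the large intestine (-3.53 and -3.20; difference -0.12, adjusted p = 0.81) but not in the stomach (0.58 and 0.44; difference -4.002, adjusted p = 8.8e-11). The aldehyde oxidases Aox3 and Aox1 were lower by differences of -3.09 ± 0.22 and -2.85 ± 0.26.

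Solute carriers and ion pumps were called higher for 7 of 17 probes (41.2%, where 12.2% of all probes were) and lower for 2 (11.8%, where 11.3% were). Cnnm4, a basolateral magnesium transporter, was at 3.88 and 3.996 and higher by 3.52 ± 0.19, with every non-gut array below (highest 2.82). Slc9a2, a sodium-proton exchanger, was at 6.56 and 7.11, close to muscle, whose highest array was 6.35, and its difference was 3.22 ± 0.67 (adjusted p = 0.000596). Slc52a3, the riboflavin transporter, was higher by 3.17 ± 0.40 and Atp1b1, the beta subunit of the sodium pump, by 2.77 ± 0.43. The zinc transporters Slc30a5 and Slc30a7 were higher by 1.43 ± 0.29 and 1.34 ± 0.16, and a second Slc30a7 probe, at 0.56, was not called. Slc41a1, another magnesium transporter, was lower (difference -1.91 ± 0.19), below all non-gut arrays. The zinc importer Slc39a10 overlapped them, and its difference of -1.002 ± 0.22 lost its call under 20 of the other settings. The iron exporter Slc40a1 differed between the small intestine arrays, at 1.72 and -0.32, and was not called (difference -0.39, adjusted p = 0.468).

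ABC transporters were called higher for 8 of 30 probes (26.7%, where 12.2% of all probes were) and lower for 5 (16.7%, where 11.3% were). Under median centring 3 were higher (10%), near the 8.91% of all probes. Abcb1a, a P-glycoprotein that pumps drugs back into the lumen, was at 4.24 and 4.47 against a non-gut highest of 2.01 and was higher by 3.58 ± 0.27 (adjusted p = 3.32e-09). Its close relative Abcb1b was above background on neither small intestine array and had a difference of -0.03. Abcg2, the other main efflux pump of the brush border, was higher by 1.95 ± 0.67 (adjusted p = 0.0214), with kidney highest at 3.69. The Abcg2 call was lost with either small intestine array left out (adjusted p = 0.169 and 0.0967), and under 5 of the other settings in all. The lower members included Abcc4 (-1.83), Abca5 (-1.70), Abcc5 (-1.43) and Abcc1 (-1.26).

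Xenobiotic metabolism genes were called higher for 6 of 20 probes (30%, where 12.2% of all probes were) and lower for 4 (20%, where 11.3% were), with a median of -0.0039. Nr1i3, the nuclear receptor CAR that governs drug metabolism, was at 3.77 and 3.97 in the small intestine, 4.62 in the liver mean and no more than 0.85 in either large intestine array. The difference was 3.30 ± 0.11 (adjusted p = 3.66e-14), and it was called above the large intestine by 3.22 (adjusted p = 3.1e-11; 3.02 without replicate 1) and the stomach by 3.75 (adjusted p = 5.8e-13). Fmo4, a flavin monooxygenase, was at 3.20 and 3.07, above the highest kidney array at 2.67, and Ugt1a6a, a glucuronosyltransferase, was higher by 2.78 ± 0.17 with liver highest. Cbr2, the lung carbonyl reductase, was lower (difference -2.90 ± 0.32), as were Aox3, Aox1 and Gsta3 (-1.25 ± 0.40). The Gsta3 difference was 0.43 against muscle, skin, fat and bone alone, and its call was also lost without small intestine replicate 1 (difference -0.77, adjusted p = 0.312).

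**Figure D3:**
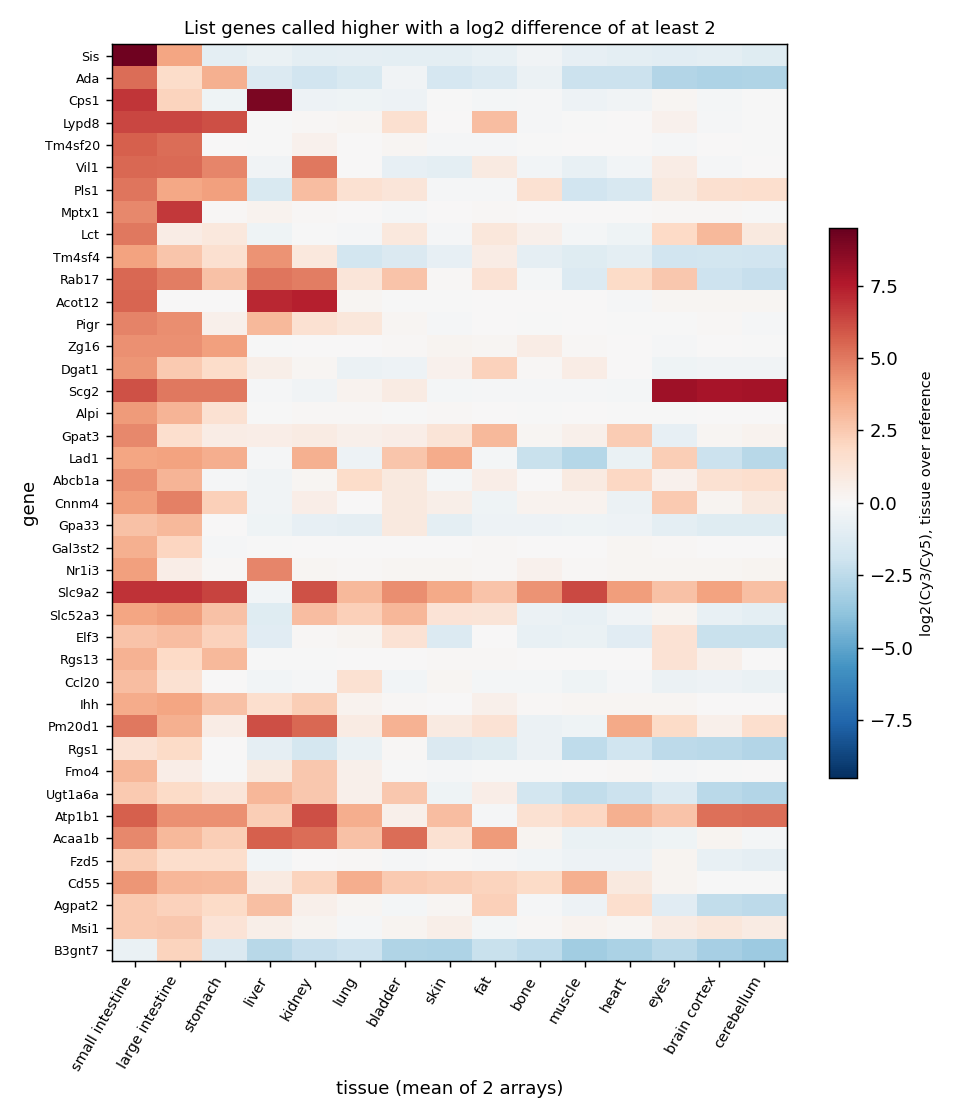
Mean log2 ratio over 2 arrays (colour) for 41 list genes called higher with a difference of at least 2 (y axis) in the 15 tissues (x axis). The small intestine is the highest tissue for 20 of them, the large intestine for 11, the liver for 7 and the kidney for 2, and values run from -3.42 to 9.27.

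Regulators of gut epithelium were called higher for 6 of 13 probes (46.2%, where 12.2% of all probes were) and lower for 0 (11.3% of all probes). With the value table, 10 were higher, where 15.9% of all probes were. Besides Nr1i3, Elf3, an epithelial ETS factor, was at 2.25 and 3.10 and higher by 3.17 ± 0.32 (adjusted p = 1.79e-07). Ihh, the hedgehog ligand made by enterocytes, was at 3.37 and 3.69 and higher by 3.06 ± 0.24, with kidney the highest non-gut tissue. Fzd5, a Wnt receptor of crypt cells, was at 2.50 and 2.21, above all non-gut arrays, and was higher by 2.60 ± 0.14. Msi1, an RNA-binding protein of crypt progenitors, was at 2.35 and 2.68, and the highest non-gut array was brain cortex at 1.13. Its difference was 2.13 ± 0.27 (adjusted p = 2.59e-06). Large intestine arrays of Msi1 stood at 1.63 and 3.54, and only without replicate 1 was the small intestine called lower (difference -1.03, adjusted p = 0.00064). Nr5a2, a nuclear receptor of crypts, had a difference of 0.65 and was not called.

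The enteroendocrine list had 3 of 7 probes called higher (42.9%, where 12.2% of all probes were), all of them for genes that neurons also use. Scg2, a granin of secretory granules, was at 5.86 and 6.17 in the small intestine, 6.42 and 3.63 in the large intestine and 5.18 and 4.76 in the stomach. It was higher still in eyes, cerebellum and brain cortex, whose means were 8.08, 7.93 and 7.86, and near 0 in most other tissues. The difference was 4.02 ± 0.40 (adjusted p = 1.44e-07), and 2.92 on Cy3 alone. Resp18, another granule protein, was higher by 1.63 ± 0.16 and lower than the stomach (difference -1.43). Trpa1, an irritant channel of enterochromaffin cells, was at 0.13 and -0.31, above background in no non-gut array, with a bound of 1.75-fold, and its call was lost without small intestine replicate 1 (adjusted p = 0.0585). The neural list held 2 of 19 probes called higher, which were Scg2 and Resp18, and 3 lower, or 10.5% and 15.8%, near the 12.2% and 11.3% of all probes.

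Of 60 proliferation probes, 25 were called higher (41.7%) and 0 lower, with a median difference of 0.90. Of all probes 12.2% were called higher. The count was 11 (18.3%, where 8.91% of all probes were) under median centring and 9 (15%) against muscle, skin, fat and bone alone, near the 12.7% of all probes in that comparison. Birc5, the survivin subunit of the chromosomal passenger complex, was at -1.49 and -1.79, against a non-gut median of -4.49. Bone, which holds marrow, was the highest non-gut tissue at a mean of -0.40 and overlapped the small intestine. The difference of Birc5 was 2.40 ± 0.21 (adjusted p = 2.58e-08). Aurkb, a partner of Birc5, was higher by 1.73 ± 0.25, the replication helicase subunit Mcm6 by 1.25 ± 0.22, and the mitotic kinase Plk1 by 1.15 ± 0.19. The calls of Mcm6 and Plk1 were lost under median centring and against muscle, skin, fat and bone. Mcm3 and Mcm7 had differences of 0.94 and 0.61 and were not called.

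Lymphoid genes were called higher for 7 of 26 probes (26.9%, where 12.2% of all probes were) and lower for 0, with a median of 0.58. On the value table of the series 13 were higher and 1 lower, where 15.9% and 17.8% of all probes were. Rgs13, a G protein regulator of germinal centre B cells that tuft cells also make, was at 3.59 and 3.04 and above background in 3 of 24 non-gut arrays, and its difference was 3.13 ± 0.21 (adjusted p = 9.23e-10). Rgs1, of activated lymphocytes, was at 1.09 and 1.58, above every non-gut array, and was higher by 2.86 ± 0.41. The B cell genes Fcmr, Fcrla and Mzb1 were higher by 1.87 ± 0.32, 1.605 ± 0.33 and 1.49 ± 0.18, with lung the highest non-gut tissue for all 3. Ptprc, the general leukocyte antigen CD45, was higher by 1.15 ± 0.29, and Fasl, a killer cell ligand, by 1.33 ± 0.30. Without small intestine replicate 1 both calls were lost, with differences of 0.95 (adjusted p = 0.0822) for Ptprc and 0.85 (adjusted p = 0.114) for Fasl, and the Ptprc call was lost under 6 of the other settings in all. Cd28, a costimulatory receptor of T cells, had a difference of -0.02 and was not called. The summed level of the list was 5.78 and 5.45 in the small intestine, within the non-gut range of 4.14 to 6.81. Of 15 myeloid probes 0 were called higher, and Trem2, a macrophage receptor, was the 1 called lower (difference -1.36 ± 0.20).

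Markers of tissues that can be carried along with the gut were mixed. Over all probes 12.2% were called higher and 11.3% lower. Of 5 pancreatic acinar probes 3 (60%) were called higher, namely Zg16, Try5 and Erp27. Try5, a trypsin, was at 3.53 in small intestine replicate 1 and -0.07 in replicate 2, and its call was lost without replicate 1, while Amy2a5, amylase, was at 0.24 and -0.03. Of 5 smooth muscle probes 1 (20%) was called, for Des, desmin (difference 1.16 ± 0.20), and the median was 0.96. The Des call was lost under median centring and without small intestine replicate 2 (difference 0.82), and its difference was -0.13 against muscle, skin, fat and bone. The summed level of the smooth muscle list was 3.77 and 4.47 in the small intestine, within the non-gut range of 2.24 to 6.07, and that of the pancreas list was 4.96 and 5.03, above the range of 2.15 to 2.95. Most of the pancreas sum came from Zg16, which goblet cells also make, in replicate 2 and from Zg16 and Try5 in replicate 1. Their part in the results was not tested. Of 6 fat probes 1 was higher (16.7%) and 3 lower (50%), and of 16 matrix probes 0 were higher and 4 lower (25%), among them Adamts2 and Igfbp5 (both -1.85).

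Among 12 hepatocyte genes, the 4 called higher (33.3%, where 12.2% of all probes were) were Cps1, Nr1i3, Agxt and Otc, and 3 were called lower (25%, where 11.3% were), among them Spp2 and F13b. Serpinc1, antithrombin, was at 0.26 and 0.47 in the small intestine, compared with 5.30 in the liver mean, and was not called (-0.14). Spp2 and F13b were above background on no small intestine array, with bounds of at least 2.42-fold and 1.86-fold lower. Both calls were lost with liver or kidney left out of the mean, and with scan day as a block, against muscle, skin, fat and bone, the differences were 0.086 for Spp2 and 0.070 for F13b.

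General cell functions showed fewer calls than the 12.2% higher and 11.3% lower of all probes. Of 54 oxidative phosphorylation probes 2 (3.7%) were called higher, Ndufab1 (difference 2.06 ± 0.20) and Sdhd (1.32 ± 0.20), and 0 lower. None of 26 ribosomal protein probes was called (limma, 0 higher and 0 lower), although 6 had an unadjusted p under 0.05, and their differences lay between -0.76 and 0.49.

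**Figure D4:**
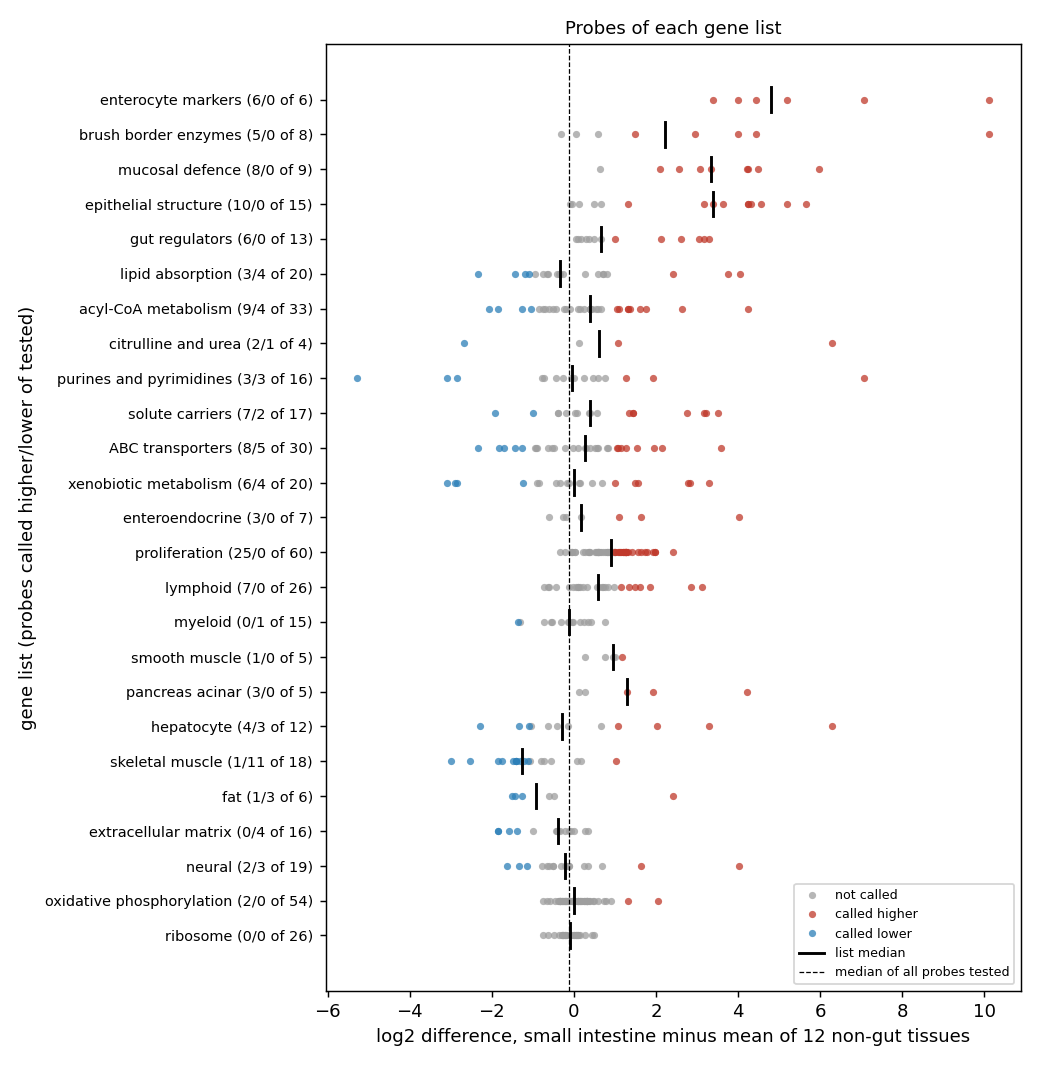
The difference, small intestine minus the mean of the 12 non-gut tissues on the log2 scale (x axis), for each probe of 25 gene lists (y axis, with the counts called higher and lower of those tested). Probes called higher are red, called lower blue and others grey, with a black bar at the list median and a dashed line at the median of all probes, -0.11. The enterocyte, mucosal defence and epithelial structure lists lie to the right with medians of 4.81, 3.34 and 3.38, and skeletal muscle lies to the left at -1.27.

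Of 18 skeletal muscle probes 11 were called lower (61.1%, where 11.3% of all probes were) and 1 higher (5.56%, where 12.2% were), with a median of -1.27. Ankrd23, a titin-associated protein, was at -0.44 and -0.18 and its difference was -2.99 ± 0.19 (adjusted p = 3.44e-10), with bone highest at 7.21. Actn3, the actinin of fast fibres, had a difference of -2.54 ± 0.46 (adjusted p = 0.000171). Mstn, Mettl21c, Mybph and Jph1 were above background on neither small intestine array. On Cy3 they were at least 2.64-fold, 3.01-fold, 2.69-fold and 2.29-fold lower. Against single non-gut tissues the small intestine was called lower than only 4, 4, 3 and 7 of the 12 for these genes, and 5 for Actn3. The calls of Mybph and Jph1 were lost with muscle left out of the mean. The calls of Mstn and Mybph were lost with either small intestine array left out, at adjusted p from 0.0534 to 0.102. Tnnt2, cardiac troponin T, was the exception at 1.01 ± 0.34 (adjusted p = 0.0194), a call that was lost under 20 of the other settings.

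The 8 named genes with the largest negative differences among those without overlap were above background in all 24 non-gut arrays. Adssl1 and Glul are described with their pathways. Adarb1, an RNA-editing adenosine deaminase, was at -2.30 and -2.41, with the non-gut arrays between -0.47 and 4.06 and the cerebellum highest. Its difference was -3.60 ± 0.16 (adjusted p = 2.02e-12). Adarb1 was also lower than in the stomach (difference -2.42, adjusted p = 6.8e-08), whereas its difference of -0.72 from the large intestine was under the threshold of 1.

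Acyp2, the muscle acylphosphatase, was at 0.04 and 0.12 in the small intestine and between 0.72 and 6.43 elsewhere outside the gut. The difference was -3.45 ± 0.31 (adjusted p = 3.97e-08). Ildr2, a membrane protein, was at -2.24 and -1.77, just under the lowest non-gut array at -1.74, and its difference was -2.98 ± 0.28. Both gut neighbours were as low, at -1.49 and -2.45 in the large intestine and -2.05 and -2.47 in the stomach.

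Gpc1, a heparan sulfate proteoglycan, was at -3.20 and -2.46 and its difference was -2.80 ± 0.24 (adjusted p = 2.64e-08). It was lower than in the large intestine as well, by a difference of -1.35 (adjusted p = 0.0089; -1.68 without replicate 1). Serpine2, a protease inhibitor of connective tissue and nerve, was at -0.47 and 0.07, below the non-gut range of 1.04 to 3.76. Its difference was -2.60 ± 0.15 (adjusted p = 9.87e-11), and -1.31 against the large intestine (adjusted p = 0.00022). The transcript 2210408F21Rik had a difference of -2.89 ± 0.13.

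**Figure D5:**
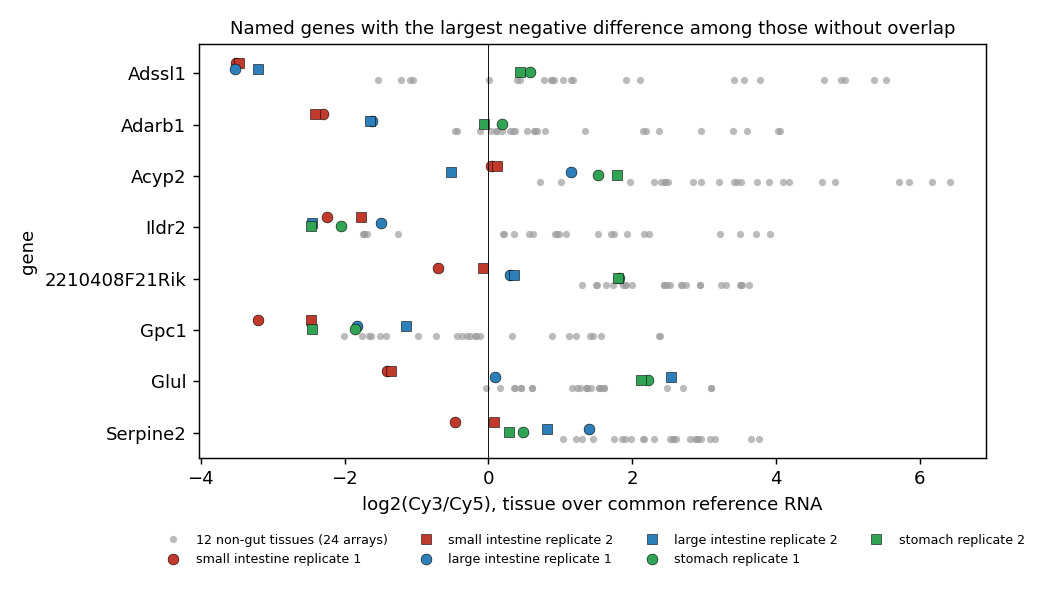
The log2 ratio of tissue over reference RNA (x axis) for the 8 named genes with the largest negative differences among those whose small intestine arrays all lay below the non-gut arrays (y axis), with symbols as in the plot of the higher genes. Every red small intestine point lies left of every grey non-gut point in its line. Stomach arrays lie among the grey points for Adssl1 (0.58 and 0.44) and Glul (2.22 and 2.13) and beside the red points for Ildr2 (-2.05 and -2.47).

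Within the gut, 1330 probes (6.33%) were called higher and 1060 (5.04%) lower in the small than in the large intestine, and 3311 (15.7%) and 2437 (11.6%) without large intestine replicate 1. Without replicate 2 instead the counts were 547 and 582, and both sets rest on 1 large intestine array. Against the stomach, 1616 (7.69%) were higher and 1752 (8.33%) lower. Of the 2555 probes called higher against the non-gut mean, 761 were also higher than the large intestine, 98 were lower and 1696 had no call, and without large intestine replicate 1 the first of these counts were 1029 and 192. For the stomach they were 1226, 79 and 1250. Both gut tissues were exceeded by 542 of these probes, or 661 without large intestine replicate 1. Of the 2367 called lower, 361 were also lower than the large intestine, 731 lower than the stomach and 194 lower than both. The comparisons share the small intestine arrays, so these counts are not independent of one another.

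Among the genes named here, those called above the non-gut mean and both other gut tissues were Sis and Lct of the brush border, Pm20d1, Ada, Dgat1, Gpat3, Cps1, Acot12 and Acaa1b of metabolism, Abcb1a, Slc30a5, Nr1i3 and Fmo4 of transport and drug metabolism, Gal3st2 and Ccl20 of mucosal defence, and the transcripts Exoc3l4 and 2010106E10Rik. Of the 15 epithelial structure probes 0 were called above the large intestine by limma, where 6.33% of all probes were, and 2 without its replicate 1, where 15.7% were. Above the stomach 5 were called, where 7.69% of all probes were. Of the 54 oxidative phosphorylation probes, 8 were higher than the large intestine, 15 without its replicate 1, and 0 were higher than the stomach, beside the same shares of all probes (6.33%, 15.7% and 7.69%). No test compared these lists with each other.

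The largest differences without a symbol are given by probe, with the first 30 of 60 bases of each probe to identify it.
Z00026066-1: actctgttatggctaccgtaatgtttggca
Z00031811-1: acattagagccttaatctgctctttccata
Z00022706-1: agaagtggggactgattcgtttgaagaaga
Z00022893-1: catcagcctggacccagttcctactatgta

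Z00026066-1 was at 6.05 and 6.61 in the small intestine and 6.17 in the kidney mean, with a non-gut median of -3.96, and its difference was 9.18 ± 0.91 (adjusted p = 1.4e-07). Z00031811-1 was at 8.86 and 9.59, with no non-gut array above 0.44, and its difference was 9.17 ± 0.54 (adjusted p = 1.32e-10), and 11.24 on Cy3 alone. On the negative side, Z00022706-1 had a difference of -4.41 ± 0.23 with muscle highest, and Z00022893-1 a difference of -4.39 ± 0.21 with heart highest.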

How the data were processed

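Two-colour microarrays of 30 tissue samples were analysed. The authors scanned the arrays and extracted the spots with Feature Extraction 9.5.1.1, and the deposited spot files hold intensity values in scanner units for Cy3 (tissue) and Cy5 (reference) on 43451 spots an array. The value table deposited by the authors holds log10 values that by their range are Cy3 levels and not ratios, used only as an alternative after conversion to log2. Its centring and how it was made are not given in the sources used here.

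Mean signals were background-corrected with limma 3.58.1 (R 4.3.3; normexp, offset 50) and normalized within arrays by loess, without control spots and with 475 outlier spots (0.0377%) removed. Probes of the value table were tested where some tissue had Cy3 well above background in both its replicates (21026 of 25030). A linear model with 1 coefficient a tissue was fitted to all 30 arrays, followed by empirical Bayes moderation and Benjamini-Hochberg adjustment. A probe was called at an adjusted p under 0.05 and a log2 difference of at least 1. No array reports depth in reads, so the number of arrays limits the precision, and p-values measure the spread between 2 arrays a tissue, pooled over tissues, which may be technical for fat and bone.

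Symbols came from probe lists of the study, so 5049 of the tested probes (24%) were named, updated through the RefSeq gene table where it held them. The gene lists were thus covered in part. A named probe was held by 10 of 59 mucosal defence, 16 of 72 solute carrier and 22 of 94 xenobiotic genes. The named genes were the 14 highest and 8 lowest with symbols whose small intestine arrays did not overlap the non-gut arrays, the members of the gene lists, and the 2 highest and 2 lowest probes without a symbol. The comparison, the named genes and the lists were chosen with earlier results of these data known. The model was tested on simulated data with independent noise on each array. The simulation held no slide effect and no tissue with a wider spread than others, so it does not cover those limits. Alternatives covered the centring, the signals, the filter, the thresholds, the tissues averaged, batches and leaving out each array. Some genes of the lists are counted but not reported by name here.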

Additional observations from a re-analysis of the deposited data

Results flagged for a closer look

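For 8 of the 22 named genes with the largest differences without overlap the small intestine differed from the large intestine as well as from the non-gut mean, by a direct test between them. The differences on the log2 scale, small minus large intestine, were 5.54 for Sis, 3.60 for Ada, 1.18 for 2210009P08Rik, 3.14 for Exoc3l4, 3.41 for 2010106E10Rik, -1.35 for Gpc1, -2.70 for Glul and -1.31 for Serpine2. Without large intestine replicate 1 they were 9.73, 3.95, 2.20, 4.30, 5.19, -1.68, -3.92 and -1.02.

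Probes outside the value table also differed. Of 13622 such probes tested, 1226 (9%) were called higher and 893 (6.56%) lower in the small intestine than in the non-gut mean.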

How the results depend on the processing

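The 26 genes and probes named for the largest differences kept their direction and call in all 1505 values computed for them against a mean of tissues. Against single non-gut tissues, Vil1, Acyp2, Gpc1 and Z00026066-1 were called against 11 of the 12, and Ildr2, Z00022706-1 and Z00022893-1 against 10. Of the values for the 168 named members under other settings, 9394 kept the call, 332 lost the call and 10 turned direction. Against muscle, skin, fat and bone alone the difference was -0.13 for Des, 0.43 for Gsta3 and 0.10 for F13b, and with scan day as a block -0.38, 0.70 and 0.070, with 0.086 for Spp2 and 0.20 for Tunar. Gdap1 was at 0.83 with Agilent's processed signals and 0.57 with the value table. The cause was not tested.

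Probes called lower numbered 3976 with Agilent's processed signals and 3740 with the value table. At a difference of at least 2 the counts were 1222 higher and 385 lower, at an adjusted p alone 4312 and 5987, and against each of the 12 tissues 382 and 34. Against the large intestine they were 710 higher and 621 lower under median centring, and 670 higher with slide as a block, and against the stomach 1003 higher under median centring. Leaving out 1 array gave 2353 to 2581 higher and 1972 to 2450 lower against the non-gut mean, 547 (without large intestine replicate 2) to 3311 (without its replicate 1) higher and 567 to 2437 lower against the large intestine, and 1318 to 1684 higher and 1434 to 1820 lower against the stomach.

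In the gene lists, median centring gave 3 of 30 ABC transporter, 5 of 33 acyl-CoA and 11 of 60 proliferation probes higher. It also gave 1 of 4 citrulline and urea, 0 of 18 skeletal muscle and 0 of 5 smooth muscle probes higher. Lower were 1 of 26 lymphoid, 2 of 15 myeloid and 1 of 26 ribosomal probes, where 8.91% of all probes were higher and 13.7% lower. Cy3 alone gave 0 of 18 skeletal muscle and 0 of 5 smooth muscle probes higher, and 1 of 17 solute carrier and 2 of 15 myeloid probes lower. Of all probes 10.9% were higher and 12.1% lower on that measure. The value table gave 0 of 18 skeletal muscle, 4 of 19 neural, 13 of 26 lymphoid, 2 of 5 smooth muscle and 10 of 13 gut regulator probes higher. With it 8 of 30 ABC transporter, 1 of 26 lymphoid and 2 of 15 myeloid probes were lower, where 15.9% of all probes were higher and 17.8% lower.

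The differences between replicates of small intestine and of each other tissue correlated from -0.186 to 0.343, over 0.1 for 5 of 14 tissues. These values cannot decide whether the replicate numbers pair tissues of the same animal, since the small intestine replicates also lie on different slides. With the replicate number as a block, 2559 probes were higher and 2371 lower. Slide and scan day as fixed blocks could not be fitted for the 12 tissues; with slide as a random block (correlation 0.692) 2488 were higher and 2635 lower. Within the slide that holds small intestine replicate 1, muscle and skin, 98.3% of the probes called higher and 92.8% of those called lower had the same direction, where 46.1% of all probes were positive and 73.5% of the probes not called kept their sign. These arrays also went into the calls.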
